A study of Mus musculus with 24 samples.

Results

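The response of MuSK-null mouse myotubes to bone morphogenetic protein 4 (BMP4) was described from 6 of the 24 arrays of the series, taken by their labels. The 3 arrays of BMP4-treated MuSK-/- myotubes were set against the 3 arrays of untreated MuSK-/- myotubes, across the 19938 genes that a probe set of its own measured. The cells came from 1 MuSK-/- line, immortalised with the temperature-sensitive large T antigen of the H-2Kb-tsA58 transgene. Its myoblasts were grown to confluence on gelatin at 33 °C in fetal bovine serum with interferon-γ, and were then kept for 3 days at 37 °C in horse serum to form myotubes. The treated group received 25 ng/ml BMP4 for 8 h without serum deprivation, and its partner group received none. The other 18 arrays share the estimate of the spread, and 12 of them are also compared. The compared ones are BMP4-treated and untreated wild-type H-2Kb-tsA58 myotubes, prepared and treated in the same way, and BMP4-treated and untreated MuSK-/- myoblasts at 33 °C, with 3 arrays each. Treated myoblasts had been serum deprived for 4 h before the same BMP4 dose and time. BMP4-treated and untreated wild-type myoblasts, with 3 arrays each, entered the fit and no comparison. Each genotype is represented by 1 line, so loss of MuSK and other differences between the lines cannot be told apart. The labels call the samples biological replicates without saying whether they were separate cultures, so a p-value here reflects variation between these samples, which may be technical. Each sample is bulk RNA from a whole culture, in which fewer cells of a type and less RNA per cell cannot be told apart.

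BMP4 is a secreted ligand of the transforming growth factor beta (TGF-beta) superfamily. It brings together type I and type II receptor kinases, which phosphorylate Smad1, Smad5 and Smad9. These enter the nucleus with Smad4 and bind regulatory DNA of genes such as the Id genes and the inhibitory Smads, which feed back on the pathway. In muscle cells BMP signalling is known for holding back differentiation and, at sufficient exposure, for switching on bone-associated genes. MuSK, a receptor tyrosine kinase best known for building the neuromuscular synapse, has also been described as a BMP co-receptor in muscle cells.

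The values were deposited log2 signals, 1 per probe set and array, and differences below are in log2 units, where 1 unit is a doubling of signal. The array medians lay between 7.41 and 7.45 in the 6 arrays. Arrays of the same group correlated at 0.9965 to 0.9975 across genes, and the SD of the difference between paired arrays was 0.16 to 0.19. Array data have no read depth. Precision came from 3 arrays per group and a spread estimated over all 24 arrays, with 16 residual degrees of freedom. A fit on the 6 compared arrays alone called 1872 genes for the response, against 2245 with all arrays. The median standard error (SE) of a change was 0.09. In what follows a gene rose or fell where limma's adjusted p, by Benjamini-Hochberg over all 19938 genes, was under 0.05.

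Musk signal did not pass the test for a BMP4 response and was lower in this line than in wild-type myotubes. Its probe set read 11.32, 11.32 and 11.30 with BMP4, against 11.17, 11.24 and 11.24 in untreated myotubes, a change of 0.10 (SE 0.07, adjusted p = 0.517). In wild-type myotubes it read 12.84, 12.78 and 12.84 with BMP4 and 12.72, 12.69 and 12.76 untreated. The labels do not name the exons removed from the gene, and so the remaining signal tests the genotype only in part. All 10 skeletal muscle markers, among them Myh3, Actc1, Acta1, Ttn and Mymk, were higher in untreated MuSK-null myotubes than in untreated MuSK-null myoblasts by the limma test. Across all genes 18.2% were higher and 23.4% lower in that comparison (41.6% in all). The summed log2 signal of these 10 markers was 132.71 to 132.93 in BMP4-treated and 133.17 to 133.38 in untreated myotubes. The sums of the marker lists for myoblasts, bone, cartilage, fat, smooth muscle, endothelium, immune cells and glia overlapped between treated and untreated arrays. Of the bone markers 3 of 6 were measured, and of the glia markers 3 of 5. Like the skeletal muscle sums, those of the fibroblast list of 6 did not overlap. They were 52.18 to 52.48 with BMP4 against 53.74 to 54.62 in untreated myotubes, and Lum had the widest gap in that list.

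BMP4 changed 2245 of 19938 genes in MuSK-null myotubes, with 1068 rises (5.36% of genes tested) and 1177 falls (5.90%), or 11.3% in all. With each array centred on its median 1338 genes rose and 1034 fell, so rises made up 56.4% of the calls, compared with 47.6% without centring. Rises reached further than falls. The 10 genes that changed at least 4-fold were all rises, and among changes of at least 2-fold 73 genes rose and 45 fell. Most changes were small, with a median size of 0.39 among called genes and a median change of -0.01 over all genes. Treated and untreated arrays did not overlap for 2446 genes that were higher (12.3%) and 2710 that were lower (13.6%) with BMP4, 25.9% of genes in all. Few of the calls came from dim genes, since 36 called genes had means under 6 in both groups, out of 3801 such genes tested.

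**Figure D1:**
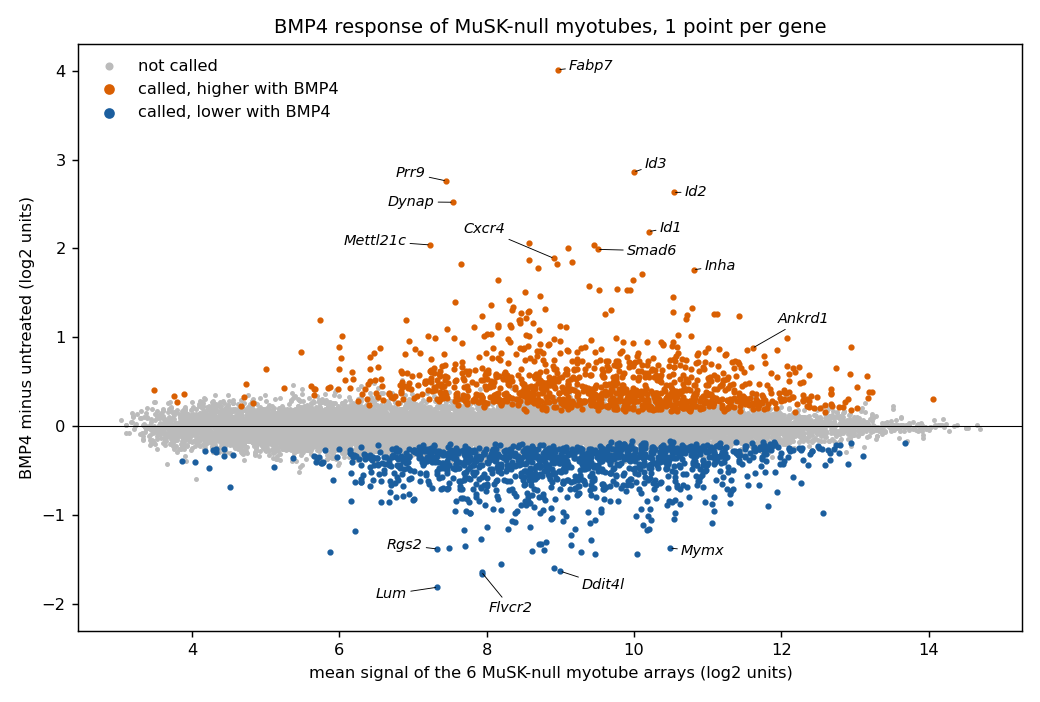
BMP4-treated minus untreated MuSK-null myotubes (log2 units, vertical axis) against the mean of the 6 arrays (log2 units, horizontal axis), 1 point per gene, with genes that rose in orange and genes that fell in blue. Fabp7 stands alone at 4.01, followed by Id3 at 2.86, while the largest fall, Lum, lies at -1.81.

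Most target genes of BMP and Smad signalling rose. Of 36 measured genes on this list 28 rose and 0 fell, with a median change of 0.57, where 5.36% of all genes rose. The list, which holds Fabp7, was chosen with earlier results of these data known. The largest rise in the data was that of Fabp7, a fatty acid binding protein best known from glia and neural progenitors. Its signal was 10.99, 10.99 and 10.94 in BMP4-treated myotubes, against 7.05, 7.0 and 6.84 in untreated myotubes. The difference of 4.01 (SE 0.08, adjusted p = 1.98e-19) is 16.1-fold, and the lowest treated array lies far above the highest untreated array. Of 12 measured genes of glia and neurons 1 rose, which was Fabp7 itself, and 0 fell (8.33% called, beside 11.3% of all genes).

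The Id genes encode inhibitors that bind basic helix-loop-helix factors, MyoD among them, and keep them off DNA. Id3 read 11.39, 11.32 and 11.57 with BMP4, against 8.61, 8.62 and 8.48 in untreated myotubes, 7.24-fold higher (2.86, SE 0.09, adjusted p = 8.97e-16). Id2 read 11.78, 11.90 and 11.89 in BMP4-treated myotubes, against 9.17, 9.44 and 9.07 in untreated myotubes, 6.18-fold higher (2.63, SE 0.08, adjusted p = 5.04e-16). Id1 read 11.32, 11.16 and 11.40 with BMP4, against 9.19, 9.18 and 8.95 in untreated myotubes, 4.55-fold higher (2.19, SE 0.07, adjusted p = 2.1e-15). For these 3 genes every treated array lies more than 1 unit above every untreated one. Id4 read 7.12, 7.36 and 6.90 in BMP4-treated myotubes, against 7.05, 7.06 and 7.03 in untreated myotubes. The Id4 groups overlap and the change was 0.08 (SE 0.10, adjusted p = 0.75).

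The stretch of 250 bases before the annotated start is shown for Fabp7, Id3 and Id2, the 3 target genes with the largest rises. The sequences are from RefSeq on GRCm38.p6, written 5′ to 3′ on the strand of the gene, with capitals marking GGCGCC, a GC-rich Smad-binding motif. Fabp7 is at chr10:57784673-57784922 (+ strand), Id3 at chr4:136143572-136143821 (+ strand) and Id2 at chr12:25096093-25096342 (- strand).
Fabp7: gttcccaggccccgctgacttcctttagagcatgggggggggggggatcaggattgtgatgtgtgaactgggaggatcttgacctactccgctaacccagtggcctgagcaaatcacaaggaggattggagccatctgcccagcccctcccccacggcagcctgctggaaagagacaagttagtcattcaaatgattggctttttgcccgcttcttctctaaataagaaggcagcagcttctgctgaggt
Id3: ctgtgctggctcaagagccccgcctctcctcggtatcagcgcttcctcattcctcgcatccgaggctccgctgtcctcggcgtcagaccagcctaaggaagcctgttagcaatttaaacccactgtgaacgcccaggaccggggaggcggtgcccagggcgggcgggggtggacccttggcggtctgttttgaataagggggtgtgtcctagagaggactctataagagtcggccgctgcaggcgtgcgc
Id2: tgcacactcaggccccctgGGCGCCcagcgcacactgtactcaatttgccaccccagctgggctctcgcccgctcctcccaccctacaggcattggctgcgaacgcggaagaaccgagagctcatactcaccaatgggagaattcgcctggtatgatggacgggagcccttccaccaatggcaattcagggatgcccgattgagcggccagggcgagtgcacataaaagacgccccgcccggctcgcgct
Id2 carries GGCGCC with its first base 231 bases before the start, and the other 2 windows hold none. Both strands were searched, and this motif reads the same on each. Of the 28 target genes that rose, 14 have a promoter in the RefSeq table, and 5 of these (35.7%) hold GGCGCC. Of all 32851 promoters 3149 (9.59%) hold it. The first share counts genes with the motif in any of their promoters, and the second counts single promoters. The target list was also chosen with earlier results of these data known, and enrichment of the motif was not tested. The 5 genes, named after their sequences were seen, are Dlx2, Gata2, Gata3, Grem1 and Id2. The Smad-binding palindrome GTCTAGAC was in 0.167% of all promoters and in 0 of the 14. A match describes letters in this window and does not show that a Smad bound there.

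Intracellular regulators of the pathway changed in both directions. Of 22 Smads and regulators 6 rose and 3 fell (40.9% called, beside 11.3% of all genes), with a median of 0.09. Smad6, which inhibits BMP receptor signalling, read 10.62, 10.34 and 10.57 with BMP4, against 8.54, 8.58 and 8.43 in untreated myotubes, a rise of 1.99 (SE 0.08, adjusted p = 3e-14). Smad7, which inhibits BMP and TGF-beta receptors, read 10.05, 9.92 and 10.27 in BMP4-treated myotubes, against 8.22, 8.37 and 8.12 in untreated myotubes, and rose by 1.85 (SE 0.09, adjusted p = 9.59e-13). Each treated array of these inhibitors exceeds every untreated one by more than 1 unit. Smad9, a receptor-activated Smad of the BMP branch, read 9.06, 8.90 and 9.13 with BMP4, against 7.75, 7.78 and 7.53 in untreated myotubes, and rose by 1.34 (SE 0.08, adjusted p = 1.77e-11). Smad5, another receptor-activated Smad of this branch, fell by 0.23 (adjusted p = 0.00853), but not without BMP4 replicate 1 (adjusted p = 0.071) or on the 6 compared arrays alone (adjusted p = 0.0745). Smad1 and Smad4 changed by 0.13 and -0.01 without passing the test. Smad3, the mediator of TGF-beta and activin, read 10.88, 10.82 and 10.94 in BMP4-treated myotubes, against 11.25, 11.35 and 11.29 in untreated myotubes, and fell by 0.42. Skil, a nuclear corepressor of Smads, rose by 0.69 (adjusted p = 3.54e-07). Runx1t1, a transcriptional corepressor, read 8.02, 8.10 and 8.14 with BMP4, against 9.52, 9.47 and 9.43 in untreated myotubes, and fell by 1.39 (adjusted p = 2.4e-08).

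Several secreted BMP antagonists, which bind the ligand outside the cell, rose. Of 16 measured 7 rose and 1 fell, where 5.36% of all genes rose and 5.90% fell. The median of all 16 was 0.07. Grem1 (gremlin) read 9.11, 9.19 and 9.14 in BMP4-treated myotubes, against 7.91, 7.77 and 8.09 in untreated myotubes, and rose by 1.22 (SE 0.07, adjusted p = 6.24e-11). Sostdc1, a BMP and Wnt antagonist, read 7.31, 7.44 and 7.79 with BMP4, against 6.19, 6.35 and 6.39 in untreated myotubes, and rose by 1.20 (SE 0.13, adjusted p = 3.54e-07). Nog (noggin) read 9.11, 8.84 and 8.88 in BMP4-treated myotubes, against 8.07, 8.13 and 7.99 in untreated myotubes, and rose by 0.88 (SE 0.08, adjusted p = 7.28e-08). Fst (follistatin), which also binds activin and myostatin, read 12.96, 13.10 and 13.14 with BMP4, against 12.38, 12.42 and 12.43 in untreated myotubes, and rose by 0.66 (SE 0.07, adjusted p = 3.34e-07). None of these 4 antagonists has overlapping groups. The other rises on the list were Bmper, Htra1 and Fstl3, between 0.27 and 0.64. Chrd (chordin) was the gene that fell, by 0.34 (adjusted p = 0.0143). That call ended without untreated replicate 3 (adjusted p = 0.0557) or without BMP4 replicate 2 (adjusted p = 0.0778).

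**Figure D2:**
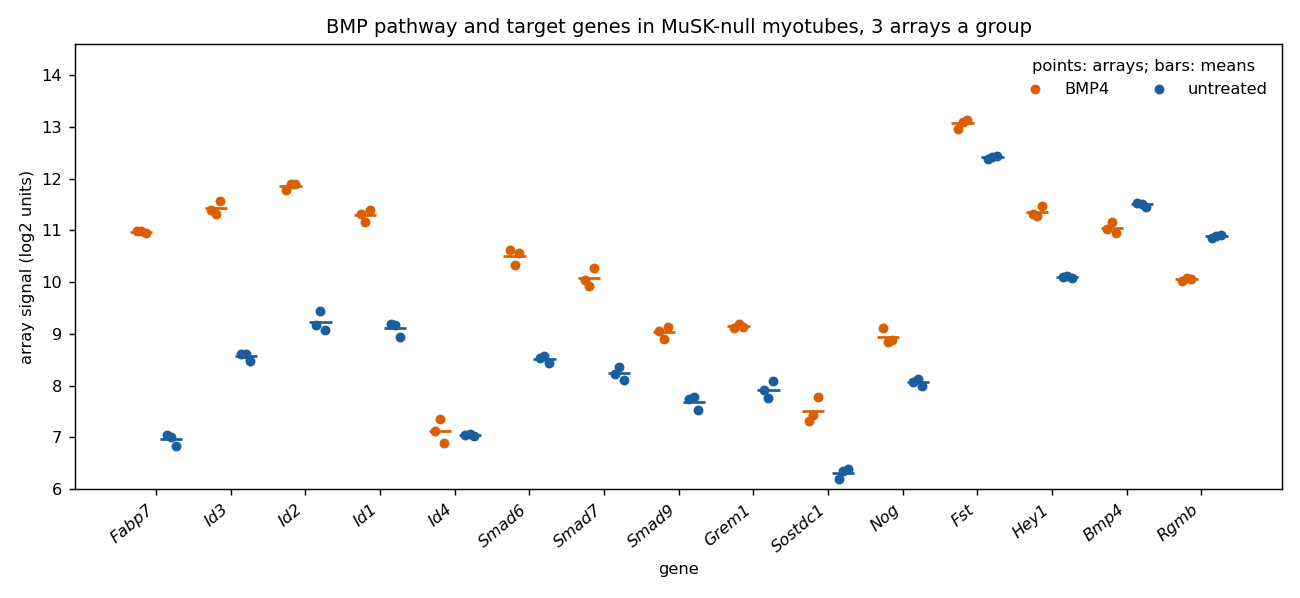
Array signal (log2 units, vertical axis) of 15 BMP pathway and target genes in MuSK-null myotubes, with 1 point per array, a bar at the mean of 3 arrays, and BMP4-treated arrays in orange to the left of untreated arrays in blue. Groups are apart for every gene except Id4, and Bmp4 and Rgmb lie lower with BMP4.

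Ligand and receptor genes gave no common direction. Of 16 BMP ligand genes 0 rose (6.25% called, beside 11.3% of all genes), and Bmp4 itself was the gene that fell. Its signal was 11.03, 11.16 and 10.94 in BMP4-treated myotubes, against 11.53, 11.51 and 11.46 in untreated myotubes, a fall by 0.46 (SE 0.11, adjusted p = 0.00709). The count of ligands was 2 without BMP4 replicate 3, with trend and robust moderation, with quantile normalization and without 4 myoblast arrays that deviated together. Of 17 receptors and coreceptors 4 rose and 4 fell (47.1% called), with a median of 0.02. Acvr1 (ALK2), a type I receptor for BMPs, read 10.51, 10.67 and 10.58 with BMP4, against 10.04, 9.98 and 10.05 in untreated myotubes, and rose by 0.56 (adjusted p = 1.01e-07). Bambi, a pseudoreceptor without a kinase that dampens signalling, read 8.16, 8.15 and 8.24 in BMP4-treated myotubes, against 7.67, 7.61 and 7.70 in untreated myotubes, and rose by 0.52 (adjusted p = 1.82e-05). Among the repulsive guidance molecules, which act as BMP coreceptors, Rgmb read 10.02, 10.08 and 10.06 with BMP4, against 10.86, 10.90 and 10.92 in untreated myotubes, and fell by 0.84. Rgma fell by 0.58 (adjusted p = 3.38e-05). The coreceptor Tgfbr3 (betaglycan) read 7.62, 7.65 and 7.70 in BMP4-treated myotubes, against 8.37, 8.46 and 8.17 in untreated myotubes, and fell by 0.67. The calls on Bmpr2, Neo1 and Bmpr1b depended on single arrays. Bmpr2, the type II receptor, rose by 0.37 (adjusted p = 0.015) but not without untreated replicate 1 (adjusted p = 0.0624) or BMP4 replicate 2 (adjusted p = 0.0981). Neo1, the receptor of the guidance molecules, rose by 0.25 (adjusted p = 0.015) but not without the same arrays (adjusted p = 0.0638 and 0.0777). Bmpr1b, a type I receptor, fell by 0.52 (adjusted p = 0.00603) but not without untreated replicate 2 (adjusted p = 0.0562).

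Several of the largest rises were in genes that no BMP list holds. Prr9, a gene for a proline-rich protein, read 8.95, 8.69 and 8.86 with BMP4, against 6.21, 6.03 and 5.98 in untreated myotubes, and rose by 2.76 (adjusted p = 1.05e-14). Dynap, a dynactin-associated membrane protein, rose by 2.52, and Pcolce2, an enhancer of procollagen processing, by 2.06. Mettl21c, a lysine methyltransferase of skeletal muscle, read 8.23, 8.24 and 8.28 in BMP4-treated myotubes, against 6.13, 6.13 and 6.38 in untreated myotubes, 4.11-fold higher (2.04, SE 0.09, adjusted p = 9.1e-14). Palmd (palmdelphin), a cytosolic protein of the paralemmin family, rose by 2.04 and Baalc by 2.01. Cxcr4, the receptor for the chemokine CXCL12, read 9.76, 9.90 and 9.90 with BMP4, against 7.92, 7.94 and 8.04 in untreated myotubes, and rose by 1.89 (adjusted p = 3.07e-14). Inha, the alpha subunit of inhibins, read 11.75, 11.61 and 11.72 in BMP4-treated myotubes, against 9.90, 9.93 and 9.96 in untreated myotubes, and rose by 1.76 (adjusted p = 3e-14). Olr1, a scavenger receptor for oxidised lipoprotein, rose by 1.82, and the unnamed gene 4930412O13Rik by 1.87. Arrays that do not overlap between the groups were a condition for naming these genes, except Inha, whose arrays do not overlap either.

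The largest falls were smaller than the largest rises, and Lum led them. Lum (lumican), a small leucine-rich proteoglycan of collagen matrix, read 6.77, 6.10 and 6.40 with BMP4, against 8.23, 8.30 and 8.17 in untreated myotubes, and fell by 1.81 (SE 0.16, adjusted p = 3.23e-08). Its treated arrays were more scattered than its untreated arrays. Flvcr2, a membrane transporter, read 7.19, 7.0 and 7.14 in BMP4-treated myotubes, against 8.80, 8.79 and 8.65 in untreated myotubes, and fell by 1.64 (adjusted p = 1.57e-11). Ddit4l, an inhibitor of mTOR signalling, read 8.09, 8.28 and 8.17 with BMP4, against 9.81, 9.77 and 9.87 in untreated myotubes, and fell by 1.63 (adjusted p = 2.81e-13). Sema7a, a membrane-anchored semaphorin, fell by 1.59, and Nptx1, a neuronal pentraxin, by 1.55. Slc2a6, a sugar transporter, read 9.22, 9.19 and 9.53 in BMP4-treated myotubes, against 10.78, 10.80 and 10.69 in untreated myotubes, and fell by 1.44. Ucp3, the mitochondrial uncoupling protein of muscle, read 6.89, 6.81 and 6.71 with BMP4, against 8.59, 7.81 and 8.13 in untreated myotubes, and fell by 1.37 (adjusted p = 3.4e-07). The other genes among the 15 largest falls were Lrrc26, Rassf2, Scn7a, Grtp1, Mc4r, Rgs2 and, described above or below, Runx1t1 and Mymx, with changes between -1.66 and -1.37.

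The muscle programme changed in part and in both directions, and Myog, its central regulator, did not pass the test. Myog, the transcription factor that drives terminal differentiation, read 12.41, 12.33 and 12.42 in BMP4-treated myotubes, against 12.37, 12.43 and 12.37 in untreated myotubes, a change of -0.00 (adjusted p = 0.994). Of 30 myogenic regulators 4 rose and 4 fell (26.7% called, beside 11.3% of all genes). Myf5, a determination factor of undifferentiated myoblasts, read 11.22, 11.17 and 11.21 with BMP4, against 10.56, 10.46 and 10.44 in untreated myotubes, and rose by 0.71 (adjusted p = 8.87e-07). Myod1, another determination factor, read 12.82, 12.72 and 12.86 in BMP4-treated myotubes, against 12.53, 12.60 and 12.54 in untreated myotubes, and rose by 0.25 (adjusted p = 0.00199), but not in a fit on the 6 compared arrays alone (adjusted p = 0.0526). Twist2, a repressor of differentiation, and Eya4, a transcriptional cofactor, rose by 0.61 and 0.58. Tead4, a DNA-binding partner of YAP, read 10.99, 10.92 and 11.15 with BMP4, against 11.58, 11.68 and 11.61 in untreated myotubes, and fell by 0.60 (adjusted p = 9.9e-05). A fit on the 12 myotube arrays, added after seeing the data, called 13 of the 30 (8 rises and 5 falls).

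Genes of myoblast fusion fell more often than they rose, at 10 falls and 3 rises among 29, although the median was -0.01. Of this list 44.8% was called, beside 11.3% of all genes. Mymx (myomixer), the membrane microprotein needed for cell fusion, read 9.81, 9.69 and 9.93 in BMP4-treated myotubes, against 11.22, 11.25 and 11.05 in untreated myotubes, and fell by 1.37 (SE 0.09, adjusted p = 2.76e-10). The groups are more than 1 unit apart. Mymk (myomaker), its partner in fusion, changed by -0.05 without passing the test, with array signals of 13.87 to 13.90 in BMP4-treated and 13.89 to 13.96 in untreated myotubes. Mamstr, a coactivator of MEF2 and MyoD, read 8.07, 7.90 and 8.10 with BMP4, against 9.13, 9.25 and 9.09 in untreated myotubes, and fell by 1.13 (adjusted p = 7.2e-08). Elmo1, which acts with Dock proteins on Rac, fell by 0.65, and the adhesion molecule Jam3 by 0.64. Dock5, a Rac activator, read 10.63, 10.66 and 10.64 in BMP4-treated myotubes, against 9.65, 9.80 and 9.63 in untreated myotubes, and rose by 0.95 (adjusted p = 2.35e-11).

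Sarcomere genes split, with 13 rises and 11 falls among 71 (33.8% called, beside 11.3% of all genes) and a median of -0.03. Those that rose included stress-responsive and thick-filament genes. Ankrd1, an ankyrin-repeat protein induced by load, read 12.04, 12.06 and 12.04 with BMP4, against 11.22, 11.20 and 11.08 in untreated myotubes, and rose by 0.88 (adjusted p = 1.49e-08). Csrp3 (muscle LIM protein) rose by 0.84 and Mylk2, a myosin light chain kinase, by 0.85. Myh2, the fast IIa myosin heavy chain, read 8.55, 8.69 and 8.35 in BMP4-treated myotubes, against 7.80, 7.54 and 7.60 in untreated myotubes, and rose by 0.88. Myh4, the fast IIb myosin heavy chain, read 9.36, 9.31 and 9.17 with BMP4, against 9.93, 10.03 and 9.92 in untreated myotubes, and fell by 0.68. The myosin heavy chain genes are close copies, and cross-hybridisation between them was not tested. Fast-fibre Z-disc genes were among the falls: Myoz3 fell by 0.61 and Myoz1 by 0.48, and Tmod4, which caps thin filaments, by 0.60.

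Among 36 neuromuscular synapse genes 4 rose and 8 fell (33.3% called, beside 11.3% of all genes), with a median of -0.06. In a fit on the 6 compared arrays alone 5 passed (2 rises and 3 falls). Dok7, the cytoplasmic activator of MuSK, read 10.75, 10.67 and 10.90 in BMP4-treated myotubes, against 10.18, 10.29 and 10.13 in untreated myotubes, and rose by 0.57 (adjusted p = 1.88e-05) in these MuSK-null cells. Erbb3, a neuregulin receptor, read 10.93, 10.93 and 10.99 with BMP4, against 11.61, 11.75 and 11.68 in untreated myotubes, and fell by 0.73 (adjusted p = 1.55e-08), and its partner Erbb2 fell by 0.33. Lama4, a synaptic laminin chain, read 8.62, 8.66 and 8.64 in BMP4-treated myotubes, against 9.36, 9.40 and 9.28 in untreated myotubes, and fell by 0.70 (adjusted p = 0.000185). Genes of calcium handling and excitation were called in 5 of 37 cases (13.5%, beside 11.3% of all genes), 2 rises and 3 falls. The count was 3 without untreated replicate 2, untreated replicate 3 or BMP4 replicate 2. Camk2a, a calcium-dependent kinase, read 9.39, 9.37 and 9.47 with BMP4, against 10.01, 10.06 and 10.03 in untreated myotubes, and fell by 0.62. Rcan1, an inhibitor of calcineurin, rose by 0.40 and the potassium channel Kcnn3 by 0.54.

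Of 17 osteoblast genes 4 rose and 0 fell (23.5% called, beside 11.3% of all genes), with a median of -0.02. Dlx3 and Dlx5, homeobox factors of bone, rose by 0.61 and 0.62, and Ank, a pyrophosphate transporter, by 0.35. Sp7 (osterix), needed for osteoblast formation, read 6.76, 6.99 and 6.66 in BMP4-treated myotubes, against 6.01, 6.50 and 6.57 in untreated myotubes, and rose by 0.45 (SE 0.14, adjusted p = 0.0356). That call rested on single arrays. Without untreated replicate 1 the Sp7 change was 0.27 (adjusted p = 0.277), without BMP4 replicate 1 it was 0.47 (adjusted p = 0.0677) and without BMP4 replicate 2 it was 0.35 (adjusted p = 0.195). Runx2 and Bglap were not measured by a probe set of their own. Of 20 chondrocyte genes 0 rose and 3 fell (15%). Sox6, a cartilage and fast-fibre regulator, read 8.27, 8.26 and 8.16 with BMP4, against 9.08, 8.95 and 8.97 in untreated myotubes, and fell by 0.77 (adjusted p = 7.39e-09), and Sox9, the master factor of cartilage, fell by 0.31 (adjusted p = 0.00186).

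Fibroblast, tendon and smooth muscle genes were mixed. Of 20 tendon and fibroblast genes 4 rose and 4 fell, where 5.36% of all genes rose and 5.90% fell. Without untreated replicate 3, 5 of the 20 were called. Scx (scleraxis), the tendon transcription factor, read 12.05, 11.84 and 12.24 in BMP4-treated myotubes, against 11.59, 11.64 and 11.51 in untreated myotubes, and rose by 0.47 (adjusted p = 0.000494). The matrix proteoglycan Dcn (decorin) fell by 0.45 (SE 0.08, adjusted p = 0.000444), beside Lum. The fibroblast receptor Pdgfra rose by 0.37 (adjusted p = 0.00384), so the markers of this cell type did not share a direction. The summed fibroblast markers were lower in the treated arrays, as given above, and their part in these changes was not tested. Among 12 smooth muscle genes 5 fell and 2 rose (58.3% called). The falls included Synpo2 at -0.54, Lmod1 at -0.47 and Smtn at -0.36, all proteins of the actin apparatus. None of 11 immune cell genes passed the limma test, and 1 of 14 endothelial genes rose (Flt1, 0.50) and 1 fell (Erg, -0.43). The endothelial share called was 14.3%, near the 11.3% of all genes.

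**Figure D3:**
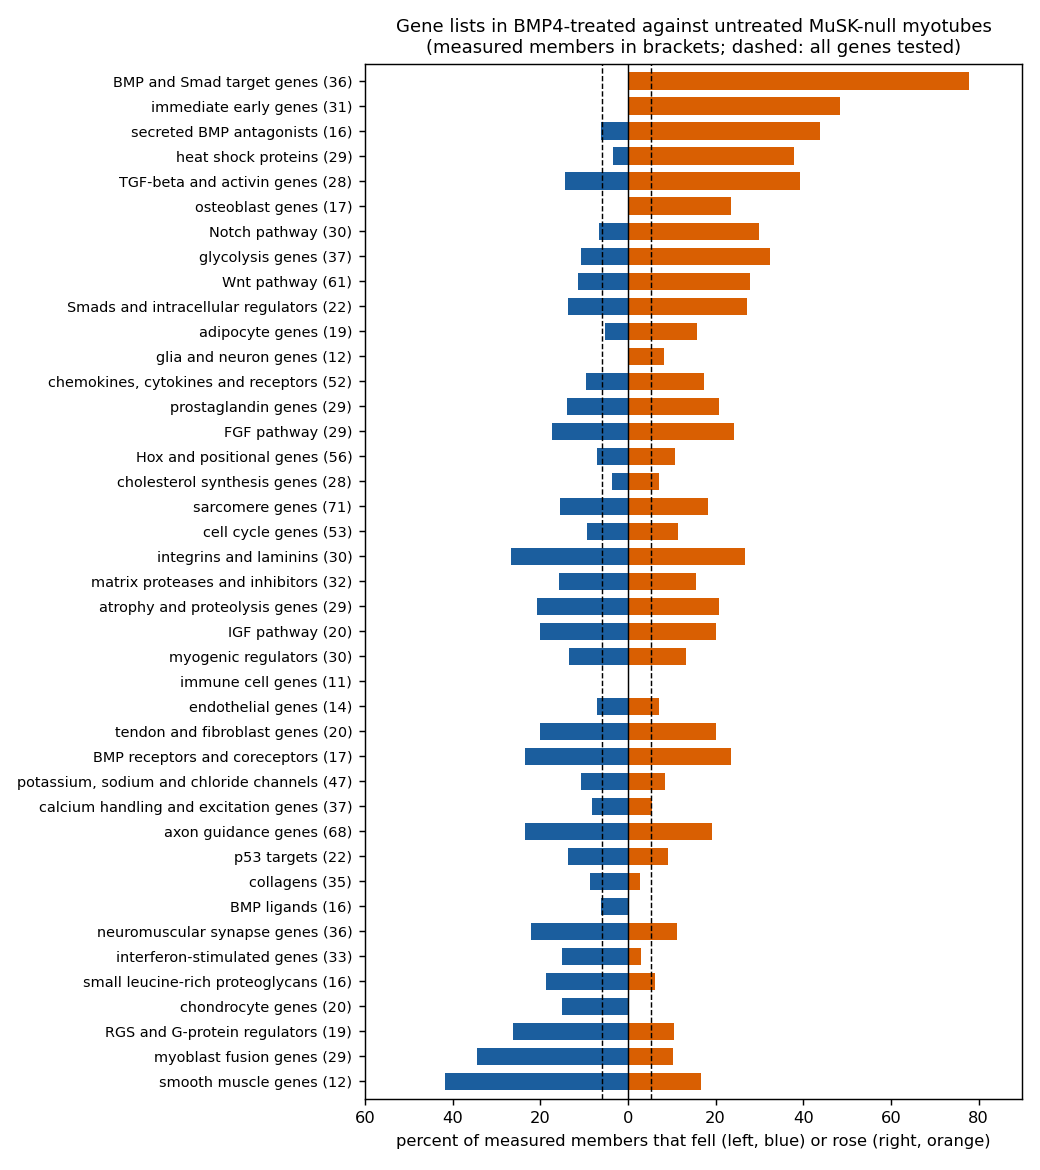
Percent of the measured members of 41 gene lists that fell (blue, to the left of zero) or rose (orange, to the right) with BMP4 in MuSK-null myotubes, with the number measured in brackets. The dashed lines mark all genes tested, at 5.90% falls and 5.36% rises, and the BMP and Smad target genes lead with 28 of 36 risen. The lists were chosen with earlier results of these data known.

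Ligands, receptors and inhibitors of other signalling pathways were among the called genes. In the Notch pathway 9 of 30 genes rose and 2 fell (36.7% called, beside 11.3% of all genes). Hey1, a target shared by Notch and BMP, read 11.31, 11.27 and 11.47 with BMP4, against 10.10, 10.11 and 10.09 in untreated myotubes, and rose by 1.25 (SE 0.13, adjusted p = 1.38e-07). Hes1, the classical Notch target, rose by 0.34 (adjusted p = 0.00169), and the ligand Jag1 rose by 0.46. Heyl read 8.98, 8.62 and 9.04 in BMP4-treated myotubes, against 8.86, 8.75 and 8.81 in untreated myotubes, a change of 0.07 (adjusted p = 0.75). Dtx4, a ubiquitin ligase that acts on Notch, read 9.56, 9.58 and 9.56 with BMP4, against 10.61, 10.74 and 10.68 in untreated myotubes, and fell by 1.11. In the Wnt pathway 17 of 61 genes rose and 7 fell (39.3% called). Lgr6, a receptor for R-spondins, read 10.60, 10.43 and 10.61 in BMP4-treated myotubes, against 8.85, 9.09 and 9.06 in untreated myotubes, and rose by 1.54 (adjusted p = 2.32e-11). The secreted Wnt antagonists Sfrp2 and Sfrp4 rose by 1.33 and 1.12, Sfrp2 with 11.51, 11.43 and 11.44 with BMP4, against 10.08, 10.14 and 10.15 in untreated myotubes. The receptor Fzd5 rose by 0.75 while the receptor Fzd9 read 8.95, 8.98 and 8.92 in BMP4-treated myotubes, against 9.93, 10.12 and 9.95 in untreated myotubes, and fell by 1.05.

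Of 28 TGF-beta and activin genes 11 rose and 4 fell (53.6% called, beside 11.3% of all genes). The ligands Tgfb1 and Tgfb2 rose by 0.80 and 0.80, Tgfb1 with 11.63, 11.56 and 11.69 with BMP4, against 10.81, 10.84 and 10.85 in untreated myotubes. Ccn2 (connective tissue growth factor), a matricellular target of the pathway, read 12.36, 12.35 and 12.38 in BMP4-treated myotubes, against 11.32, 11.76 and 11.44 in untreated myotubes, and rose by 0.86. Tgfbr2, the type II receptor, fell by 0.40 (adjusted p = 0.000887). Fibroblast growth factor (FGF) genes were called in 12 of 29 cases (41.4%), 7 rises and 5 falls, but in 7 without untreated replicate 3. The ligand Fgf2 rose by 0.60 (adjusted p = 1.23e-05). Of the feedback inhibitors Spry2 rose and Spry1 fell. Spry2 read 10.83, 10.78 and 10.88 with BMP4, against 10.23, 10.34 and 10.13 in untreated myotubes, and rose by 0.59. Spry1 read 9.93, 9.82 and 10.03 in BMP4-treated myotubes, against 10.45, 10.58 and 10.48 in untreated myotubes, and fell by 0.58. In the insulin-like growth factor (IGF) pathway 4 of 20 genes rose and 4 fell, where 5.36% of all genes rose and 5.90% fell. Igfbp3, a binding protein that sequesters IGFs, read 10.58, 10.55 and 10.51 with BMP4, against 11.47, 11.34 and 11.38 in untreated myotubes, and fell by 0.85 (adjusted p = 5.7e-09). The proteases Pappa and Pappa2, which release IGFs from binding proteins, rose by 0.81 and 0.60, and the ligand Igf1 fell by 0.43 (adjusted p = 0.000841).

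Many immediate early and heat shock genes rose. Of 31 immediate early genes 15 rose and 0 fell (48.4% called, beside 11.3% of all genes), with a median of 0.25. Dusp1, a phosphatase that shuts off MAP kinases, read 11.74, 11.78 and 11.78 in BMP4-treated myotubes, against 10.35, 10.61 and 10.55 in untreated myotubes, and rose by 1.26 (SE 0.08, adjusted p = 2.91e-10). The AP-1 subunits Jun and Fosl1 rose by 0.82 and 0.95, Jun with 11.29, 11.31 and 11.24 with BMP4, against 10.50, 10.53 and 10.36 in untreated myotubes. Btg2, an antiproliferative gene, rose by 0.69. Of 29 heat shock proteins 11 rose and 1 fell (41.4% called), with a median of 0.14. The small heat shock protein Hspb6 read 12.08, 12.13 and 12.19 in BMP4-treated myotubes, against 11.41, 11.45 and 11.41 in untreated myotubes, and rose by 0.71 (adjusted p = 4.56e-09), and the co-chaperone Dnajb4 by 0.74.

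Metabolic and growth genes included a group of glycolytic rises. Of 37 genes of glycolysis and its regulation 12 rose and 4 fell (43.2% called, beside 11.3% of all genes), with a median of 0.07. Pdk4, which holds pyruvate back from the mitochondria, read 11.41, 11.50 and 11.41 with BMP4, against 10.52, 10.62 and 10.55 in untreated myotubes, and rose by 0.88 (adjusted p = 6.37e-09). Pfkfb3, which raises flux through phosphofructokinase, read 9.08, 9.15 and 9.01 in BMP4-treated myotubes, against 8.21, 8.34 and 8.31 in untreated myotubes, and rose by 0.79, and the related Pfkfb4 fell by 0.52. The lactate transporter Slc16a1 rose by 0.68 and Bnip3, a mitophagy receptor, by 0.72. Atrophy and proteolysis genes were even at 6 rises and 6 falls of 29 (41.4% called). Asb5 rose by 0.66 and Foxo3, a driver of atrophy genes, fell by 0.35 (adjusted p = 0.000672). Of 53 cell cycle genes 6 rose and 5 fell (20.8% called), but 6 in all were called without untreated replicate 3. Rrm2, the small subunit of ribonucleotide reductase, read 12.02, 12.05 and 12.08 with BMP4, against 10.62, 10.96 and 10.84 in untreated myotubes, and rose by 1.24. Cyclin D1 (Ccnd1) rose by 0.56, and E2f2 read 8.53, 8.31 and 8.81 in BMP4-treated myotubes, against 9.45, 9.63 and 9.44 in untreated myotubes, and fell by 0.96. Trp63, a p53 relative, read 8.41, 8.48 and 8.53 with BMP4, against 9.84, 9.89 and 9.71 in untreated myotubes, and fell by 1.34 (adjusted p = 9.77e-07).

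Secreted and matrix genes formed no common pattern. Of 35 collagens 1 rose (Col12a1, 0.51) and 3 fell, 11.4% beside 11.3% of all genes. Timp1, an inhibitor of metalloproteinases, read 12.58, 12.57 and 12.57 in BMP4-treated myotubes, against 11.50, 11.74 and 11.53 in untreated myotubes, and rose by 0.99 (adjusted p = 2.76e-10). Integrins and laminins gave 8 rises and 8 falls among 30 (53.3% called). Itgb3 was higher by 0.92 (adjusted p = 2.36e-07), and Itga3 and Lamb1 were at -1.03 and -0.66. Of 52 chemokines, cytokines and receptors 9 rose and 5 fell (26.9% called). The chemokine Cxcl14 read 9.01, 8.83 and 8.94 with BMP4, against 7.86, 8.15 and 8.16 in untreated myotubes, and rose by 0.87. The cytokine Il6 read 6.21, 6.52 and 6.61 in BMP4-treated myotubes, against 5.72, 5.34 and 5.60 in untreated myotubes, and rose by 0.89. Socs2, an inducible feedback inhibitor of cytokine receptors, rose by 0.83. The alarmin Il33 read 7.91, 7.77 and 7.88 with BMP4, against 8.94, 8.98 and 8.88 in untreated myotubes, and fell by 1.08, and the chemokine Ccl2 by 0.60. In the prostaglandin pathway 6 of 29 rose and 4 fell (34.5% called). Its rises included the receptor Ptger4 at 1.19, the transporter Slco2a1 at 1.12 and the synthase Ptgs2 (COX-2) at 0.79, the last with 12.12, 12.26 and 12.07 in BMP4-treated myotubes, against 11.17, 11.51 and 11.42 in untreated myotubes. Of 33 interferon-stimulated genes 5 fell and 1 rose (18.2% called, beside 11.3% of all genes). The transcription factor Irf1 fell by 0.80, but its second probe set changed by -0.01 (adjusted p = 0.98). The falls of Xaf1, Oasl2 and Ifih1 lay between -0.48 and -0.40.

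Of 68 axon guidance genes 13 rose and 16 fell (42.6% called, beside 11.3% of all genes). The netrin receptor Unc5b read 11.68, 11.65 and 11.80 with BMP4, against 10.46, 10.51 and 10.38 in untreated myotubes, and rose by 1.26 (adjusted p = 1.03e-08), and the repellent Sema3a by 0.78. Sema5a and Sema6a, transmembrane semaphorins, fell by 0.98 and 0.93. Among 56 Hox and positional genes 6 rose and 4 fell, 10 in all (17.9%). The total was 6 without untreated replicate 1, untreated replicate 3 or BMP4 replicate 2. Hoxc13 and Hoxc11 rose by 0.62 and 0.57, and Tbx15, a limb mesenchyme factor, read 10.91, 11.01 and 10.86 in BMP4-treated myotubes, against 11.67, 11.64 and 11.73 in untreated myotubes, and fell by 0.76 (adjusted p = 1.09e-08). Regulators of G-protein signalling fell in 5 of 19 cases and rose in 2 (36.8% called). Rgs2 read 6.62, 6.72 and 6.59 with BMP4, against 8.13, 8.12 and 7.81 in untreated myotubes, and fell by 1.38, Rgs16 fell by 0.81, and Rgs4 rose by 0.49 (adjusted p = 0.000426). The potassium channel gene Kcnc4 read 8.60, 8.25 and 8.71 in BMP4-treated myotubes, against 7.52, 7.33 and 7.57 in untreated myotubes, and rose by 1.04. In cholesterol synthesis 2 of 28 genes rose and 1 fell (10.7% called), the fall being that of Dhcr7, by 0.66 (adjusted p = 4.59e-08).

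Of 291 probe sets placed on microRNA genes 11 were called (3.78%, beside 11.3% of all genes), 6 higher and 5 lower. They detect the precursor or its host transcript, not the mature microRNA. The genes below were named after their values were seen. A cluster of 3 hairpins within 404 bases on chromosome 8 rose together. Mir23a (chr8:84208518-84208592) read 8.52, 8.30 and 8.36 with BMP4, against 7.71, 7.78 and 8.05 in untreated myotubes, and rose by 0.55 (adjusted p = 4.88e-05). Mir27a (chr8:84208672-84208758) read 8.93, 8.77 and 9.23 in BMP4-treated myotubes, against 8.41, 8.49 and 8.37 in untreated myotubes, and rose by 0.56 (adjusted p = 0.000812). Mir24-2 (chr8:84208815-84208921) read 8.57, 8.51 and 8.74 with BMP4, against 8.19, 8.12 and 8.18 in untreated myotubes, and rose by 0.44 (adjusted p = 0.000155). Because the hairpins share a neighbourhood and may share a transcript, these are not independent observations. Mir218-1 on chromosome 5 read 7.76, 7.75 and 7.72 in BMP4-treated myotubes, against 7.17, 7.12 and 7.25 in untreated myotubes, and rose by 0.56 (adjusted p = 0.00366). Mir1a-2, a muscle microRNA gene, read 7.0, 7.63 and 7.19 with BMP4, against 7.96, 8.10 and 8.19 in untreated myotubes, and fell by 0.81 (adjusted p = 0.00164). Mir30c-1 read 6.43, 6.2 and 6.14 in BMP4-treated myotubes, against 6.73, 6.55 and 6.78 in untreated myotubes, and fell by 0.43 (adjusted p = 0.00304). The mature 3′ arms of the cluster, and the 5′ arms of the Mir218-1 and Mir30c-1 products, are given from RefSeq (GRCm38.p6), with the seed, bases 2 to 8, in capitals.
mmu-miR-23a-3p: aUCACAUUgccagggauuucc
mmu-miR-27a-3p: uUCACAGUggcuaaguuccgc
mmu-miR-24-3p: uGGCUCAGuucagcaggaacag
mmu-miR-218-5p: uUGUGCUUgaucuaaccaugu
mmu-miR-30c-5p: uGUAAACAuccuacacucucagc
No seed is shared among these 5 sequences, although those of miR-23a-3p and miR-27a-3p begin with the same letters.

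The response of MuSK-null myotubes was next compared with that of wild-type myotubes, which asks whether the absence of MuSK goes with another BMP4 response. The difference of responses was higher in MuSK-null myotubes for 300 genes (1.5%) and lower for 340 (1.71%), 3.21% of genes in either direction, by the limma interaction test. Higher responses made up 46.9% of the 640 calls, and 62.8% of 689 calls with each array centred on its median. On the BMP and Smad target list 4 of 36 responses were higher and 3 lower, with a median difference of 0.02 beside -0.03 over all genes. Genes called in opposite directions in the 2 genotypes numbered 34.

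Id2 and Id3 responded more in MuSK-null than in wild-type myotubes, by 1.75 (SE 0.11, adjusted p = 3.46e-09) and 0.97 (SE 0.13, adjusted p = 4.67e-05). For Id2 the genotypes lay further apart without BMP4 than with it. Untreated MuSK-null myotubes read 9.17, 9.44 and 9.07, untreated wild-type myotubes 11.61, 11.72 and 11.60, and wild-type myotubes with BMP4 12.56, 12.44 and 12.58. For Id1 the difference of responses was 0.14 (adjusted p = 0.623), for Smad6 0.21 (adjusted p = 0.41) and for Fabp7 -0.31 (adjusted p = 0.198), and none of the 3 passed the test. Among the antagonists, Sostdc1 responded more in MuSK-null myotubes by 1.28 (adjusted p = 0.000114), Fst by 0.93 (adjusted p = 3.06e-06) and Grem1 by 0.57 (adjusted p = 0.00238). In wild-type myotubes Sostdc1 read 5.98, 5.63 and 6.11 with BMP4 and 5.99, 5.95 and 6.01 untreated. Fst there read 12.33, 12.31 and 12.24 with BMP4 and 12.57, 12.54 and 12.58 untreated, so its groups lie in the opposite order to the MuSK-null ones.

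Outside the BMP lists the largest higher responses were those of Mettl21c and Prr9. Mettl21c read 5.65, 5.43 and 5.64 in BMP4-treated and 5.52, 5.75 and 5.45 in untreated wild-type myotubes, groups that overlap, and the difference of responses was 2.04 (SE 0.12, adjusted p = 1.06e-09). Prr9 differed by 2.02 (adjusted p = 9.66e-09) and the unnamed gene 4930412O13Rik by 1.61 (adjusted p = 1.05e-06). Ak4, a mitochondrial adenylate kinase, differed by 1.62 (adjusted p = 9.66e-09). A second, dimmer Ak4 probe set changed by 0.31 (adjusted p = 0.195) in MuSK-null myotubes, so the probe sets for Ak4 disagree. Fgf9, a secreted growth factor, fell in wild-type myotubes and did not pass the test in MuSK-null ones. In the MuSK-null line it read 8.30, 8.47 and 8.30 with BMP4, against 8.4, 8.35 and 8.47 in untreated myotubes. In wild-type myotubes it read 8.05, 7.96 and 7.99 with BMP4 and 10.01, 9.85 and 9.87 untreated, and the difference of responses was 1.86 (adjusted p = 1.79e-08). Among glycolysis genes 10 of 37 responses were higher and 1 lower than in wild type, beside 3.21% of all genes in either direction. Pfkfb3 responded more in MuSK-null myotubes by 0.87 (adjusted p = 8.81e-06) and Bnip3 by 0.73 (adjusted p = 2.61e-05). The glycolysis list, like the other lists, was chosen with earlier results of these data known.

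**Figure D4:**
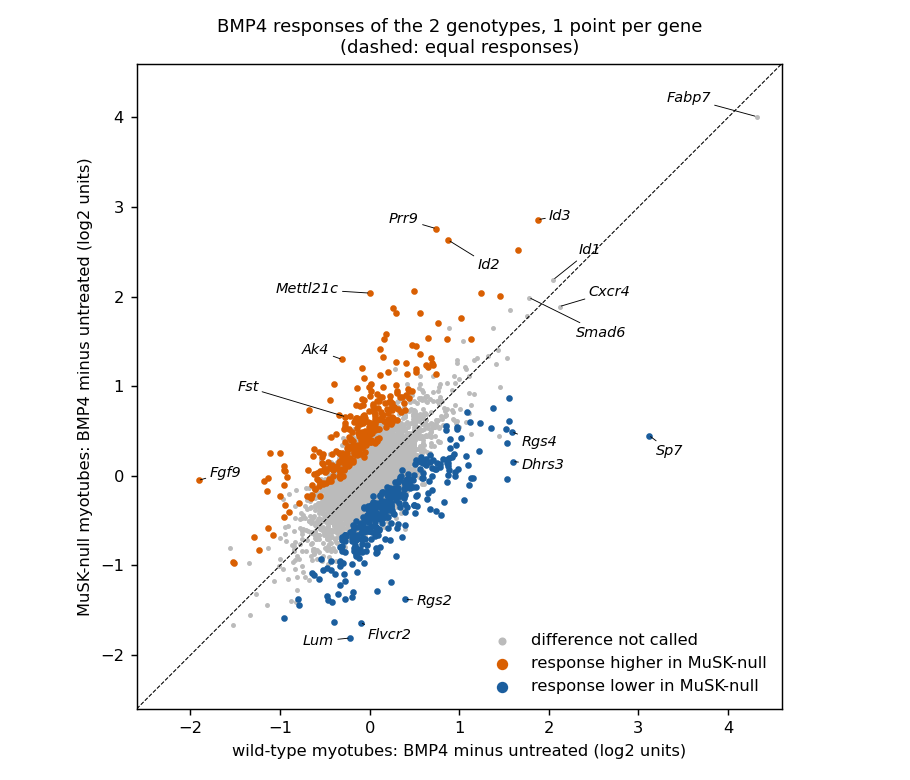
BMP4 response of MuSK-null myotubes (log2 units, vertical axis) against that of wild-type myotubes (log2 units, horizontal axis), 1 point per gene, with genes whose difference of responses passed the limma test in orange (300 higher in MuSK-null) or blue (340 lower). Sp7 lies far to the right, at 0.45 in MuSK-null and 3.12 in wild-type myotubes, and Mettl21c lies far above the dashed line of equal responses.

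The largest lower response was that of Sp7. In wild-type myotubes Sp7 read 10.54, 10.46 and 10.36 with BMP4 and 7.39, 7.42 and 7.18 untreated, and the difference of responses was -2.67 (SE 0.19, adjusted p = 9.66e-09). The genotypes lay further apart with BMP4, where MuSK-null myotubes read 6.76, 6.99 and 6.66. Rgs2 gave a difference of -1.78 (adjusted p = 5.05e-06) and Rgs4 of -1.09 (adjusted p = 9.27e-06). Rgs4 rose in both genotypes, and in wild-type myotubes it read 8.41, 8.18 and 8.37 with BMP4 and 6.84, 6.62 and 6.74 untreated. Dhrs3, an enzyme that reduces retinaldehyde, gave a difference of -1.44 (adjusted p = 4.29e-05). In the MuSK-null line it read 7.37, 7.24 and 7.54 in BMP4-treated myotubes, against 7.28, 7.09 and 7.30 in untreated myotubes. In wild-type myotubes it read 10.73, 10.85 and 10.64 with BMP4 and 9.29, 9.11 and 9.00 untreated. Lum differed by -1.60 (adjusted p = 0.000164) and Flvcr2 by -1.54 (adjusted p = 1.01e-07). The wild-type Lum arrays all lay between 4.24 and 4.75, below every MuSK-null one. Myh15, a myosin heavy chain, differed by -1.56 (adjusted p = 2.09e-08), but its MuSK-null arrays lay between 4.78 and 4.98.

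Set against MuSK-null myoblasts, the myotube response was higher for 645 genes (3.24%) and lower for 583 (2.92%), or 6.16% in either direction. Median centring gave 63.3% higher among 1301 calls, compared with 52.5% among 1228. Differentiation, temperature, medium and the serum deprivation of treated myoblasts cannot be told apart here, and this comparison uses the same MuSK-null myotube arrays as the one with wild type. Of 36 target genes 12 responded more in myotubes and 6 less. Id3 responded more by 2.12 (SE 0.13, adjusted p = 2.79e-10), Id2 by 1.92 (SE 0.11, adjusted p = 2.13e-10) and Id1 by 1.20 (SE 0.10, adjusted p = 5.3e-08). Myoblasts had high Id3 before treatment, reading 11.65, 11.83 and 11.69 with BMP4 and 11.02, 10.96 and 10.97 untreated. Smad6 gave a difference of 0.01 (adjusted p = 0.991), with changes of 1.99 in myotubes and 1.99 in myoblasts. Fabp7 responded more in myotubes by 0.58 (adjusted p = 0.00225), and Nog by 0.57 (adjusted p = 0.00311). Bambi responded less in myotubes, by -1.0 (adjusted p = 7.45e-07), and so did Sp7, by -1.29 (adjusted p = 9.11e-05).

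Cxcr4 and Il15 changed in opposite directions in myotubes and myoblasts. Cxcr4 rose in myotubes but read 7.72, 7.85 and 8.00 with BMP4 and 8.32, 8.32 and 8.21 untreated in myoblasts, a difference of responses of 2.31 (SE 0.11, adjusted p = 2.52e-12). Myod1 and Myog read lower with BMP4 in myoblasts, giving differences of 0.84 (adjusted p = 7.38e-08) and 0.67 (adjusted p = 3.93e-05). In myoblasts Myog read 9.27, 9.18 and 9.40 with BMP4 and 10.03, 10.00 and 9.84 untreated. Hpgd, which degrades prostaglandins, read 9.35, 9.21 and 9.35 with BMP4, against 9.08, 9.10 and 8.89 in untreated myotubes. In myoblasts it read 8.61, 8.41 and 8.49 with BMP4 and 10.29, 10.23 and 10.23 untreated, a difference of responses of 2.02 (adjusted p = 1.42e-10). Cpa1, a carboxypeptidase, and Alpk2, an alpha kinase, gave 1.95 and 2.12. Within MuSK-null myotubes Cpa1 changed by -0.17 (adjusted p = 0.547) and the forkhead gene Foxq1 by -0.22 (adjusted p = 0.107), so their stage differences rest on the myoblast response. Scx, the tendon factor, differed by 1.27 (adjusted p = 1.97e-07) and Sox9 by -1.23 (adjusted p = 6.63e-09). The largest lower responses in myotubes were those of Lum at -2.04, the cytokine Il15 at -1.90, Foxq1 at -1.77, Flvcr2 at -1.66, Plet1 at -1.62 and the Wnt inhibitor Nkd2 at -1.60. Lum was dim in untreated MuSK-null myoblasts, with a mean of 4.36 against 8.23 in untreated MuSK-null myotubes, so a fall could hardly show in myoblasts. Il15 read 8.83, 8.88 and 8.80 with BMP4, against 9.69, 9.61 and 9.53 in untreated myotubes, while in myoblasts it read 7.64, 7.74 and 7.83 with BMP4 and 6.69, 6.51 and 6.65 untreated.

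**Figure D5:**
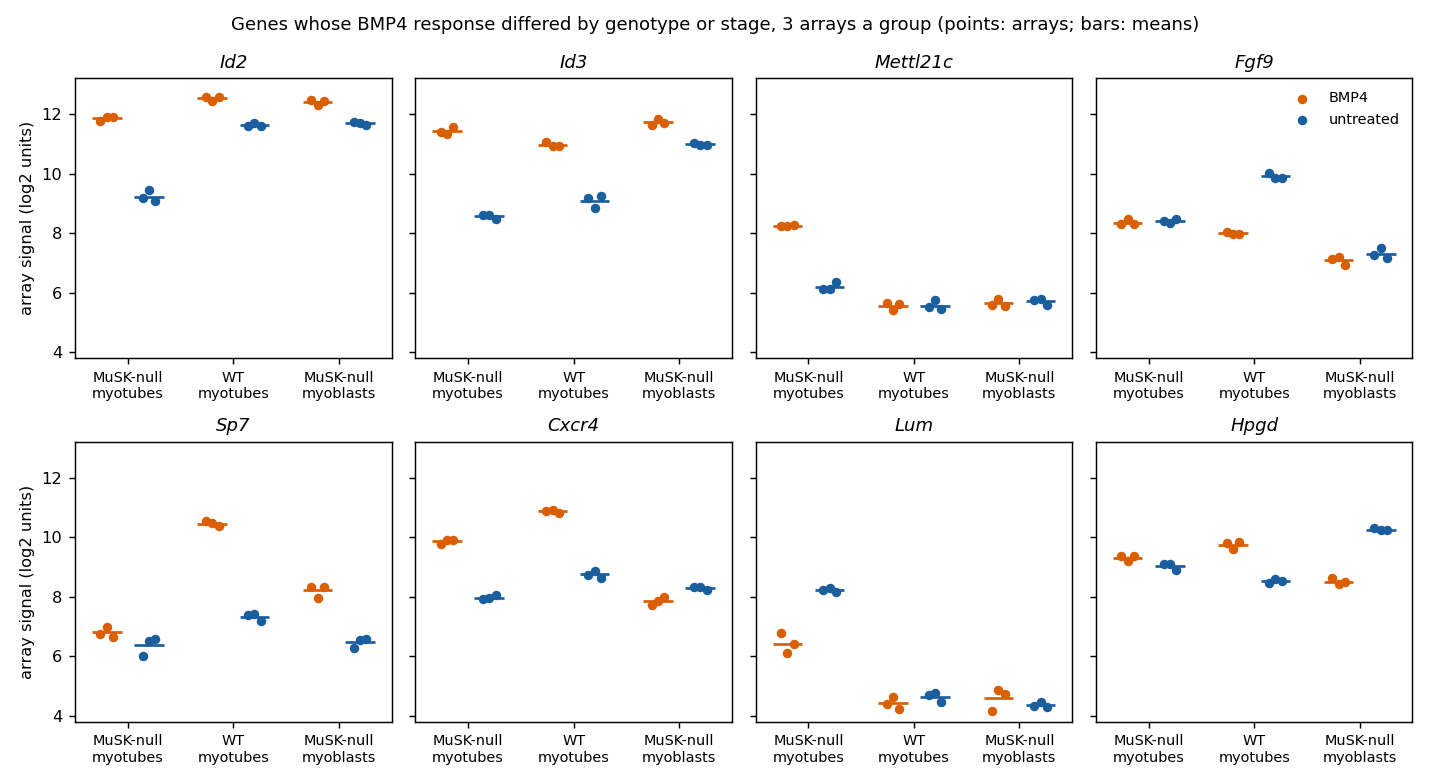
Array signal (log2 units, vertical axis) of 8 genes in MuSK-null myotubes, wild-type (WT) myotubes and MuSK-null myoblasts, 3 arrays a group, with points for arrays, bars for means, BMP4 in orange and untreated in blue. Untreated MuSK-null myotubes are the low group for Id2, Mettl21c is highest in BMP4-treated MuSK-null myotubes among the 6 groups, and Cxcr4 is higher with BMP4 in both myotube lines and lower in myoblasts.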

How the data were processed

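Gene expression was measured in 24 samples on Affymetrix mouse gene arrays. The authors deposited 1 log2 value per probe set and array, made with Affymetrix Expression Console and Partek per the submitters' processing notes. The labels name no settings for summarisation or normalization, which are not known here. Of 35556 probe sets 21789 name 1 gene, 1621 several and 12146 none. For genes with several probe sets (999) the one with the highest mean was kept, which left 19938 genes.

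A group-means model over all 24 arrays was fitted with limma 3.58.1 in R 4.3.3, with 16 residual degrees of freedom, and p-values were adjusted by Benjamini-Hochberg over all genes. Fits were tested on simulated data. The alternatives were other normalizations, filters, moderation, array sets, probe-set choices and leaving out each array. Same-numbered treated and untreated MuSK-null myotube samples did not deviate together (correlations -0.28 to -0.03), so no pairing was used. Differently numbered ones reached 0.25, and the other groups were not examined in this way.

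The members and the 41 gene lists were chosen with earlier results of these data known. Genes named were, among called genes with non-overlapping arrays and a mean of at least 6 in the higher group, the 15 that rose most and the 15 that fell most, then at most 4 called members of each list in either direction, a set of pathway genes (Musk, Id, Smad, BMP antagonist, Hey and myogenic genes), and the 6 largest differences each way. Other genes were named after their values were seen, namely Smad1, Smad4, Mymk, Bmper, Fstl3 and the microRNA genes. The differences from wild type given for Sostdc1, Pfkfb3 and Bnip3 were also outside this rule. So were the differences from myoblasts given for Scx and Sox9. The counts of calls kept in every alternative do not cover these differences. RefSeq tables gave promoters and microRNAs (GRCm38.p6).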

Additional observations from a re-analysis of the deposited data

Results flagged for a closer look

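The results below are differences between 2 BMP4 responses that passed limma's interaction test (adjusted p under 0.05), given as MuSK-null myotubes minus the other group, in log2 units.

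Against wild-type myotubes the MuSK-null response was higher for Mettl21c (2.04), Prr9 (2.02), Fgf9 (1.86), Id2 (1.75), Ak4 (1.62), 4930412O13Rik (1.61), Id3 (0.97), Fst (0.93), Heyl (0.76) and Grem1 (0.57). It was lower for Sp7 (-2.67), Rgs2 (-1.78), Lum (-1.60), Myh15 (-1.56), Flvcr2 (-1.54), Dhrs3 (-1.44), Rgs4 (-1.09) and Bambi (-0.46). Fgf9, Heyl, Dhrs3 and Myh15 did not pass the test for a BMP4 response within MuSK-null myotubes, so these differences rest on the wild-type response.

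Against MuSK-null myoblasts the myotube response was higher for Cxcr4 (2.31), Id3 (2.12), Alpk2 (2.12), Mettl21c (2.10), Hpgd (2.02), Cpa1 (1.95), Id2 (1.92), Id1 (1.20), Myod1 (0.84), Myog (0.67), Fabp7 (0.58) and Nog (0.57). It was lower for Lum (-2.04), Il15 (-1.90), Foxq1 (-1.77), Flvcr2 (-1.66), Plet1 (-1.62), Nkd2 (-1.60), Sp7 (-1.29) and Bambi (-1.0). Cpa1, Foxq1 and Myog did not pass the test for a BMP4 response within MuSK-null myotubes. Lum was dim in untreated MuSK-null myoblasts (mean 4.36) and, as given above, in wild-type myotubes, where a fall could hardly show.

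The remaining stage differences lost their call when 1 array was left out. Smad7 (0.45) and Id4 (-0.52) each lost it in 6 of the 12 such fits, with adjusted p up to 0.0986 for Smad7 and 0.0922 for Id4. Smad7 did so without untreated myoblast replicate 2, BMP4 myoblast replicates 1 and 3, untreated myotube replicates 1 and 3, or BMP4 myotube replicate 3. Id4 did so without untreated myoblast replicate 1, BMP4 myoblast replicate 2, untreated myotube replicates 1 and 2, or BMP4 myotube replicates 1 and 3. Grem1 (0.42) lost it without untreated myoblast replicate 3 (adjusted p = 0.0538) or untreated myotube replicate 2 (0.057). Fst (-0.39) lost it without untreated myoblast replicate 2 (adjusted p = 0.0553), BMP4 myoblast replicate 3 (0.0578) or BMP4 myotube replicate 1 (0.063). Hey1 (-0.71) lost it without BMP4 myoblast replicate 1 (adjusted p = 0.052).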

How the results depend on the processing

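The number of genes called for the BMP4 response was 2245, and it was 1759 to 2068 when 1 array of the compared groups was left out. The corresponding ranges were 473 to 617 for the difference from wild type (640 with all arrays), 1004 to 1214 for the difference from myoblasts (1228) and 7629 to 7879 for untreated myotubes minus myoblasts (8287). Asking for a 1.5-fold change as well left 546, 281, 559 and 3279 genes in these 4 comparisons, which follows from the added condition. The other alternatives kept all 4 counts within 1.5 times, and no called gene reversed its direction among the 272 genes named by the rule. Of the 263 genes among them called for the response, 207 were called in every alternative. For the difference from wild type it was 17 of 18 called genes, Bambi being the exception, and for the difference from myoblasts 20 of 25. Same-numbered treated and untreated MuSK-null myotube samples did not deviate together, but this cannot show how the cultures were handled. With the replicate block 1984 genes were called for the response and 463 for the difference from wild type (Bambi not among them, adjusted p = 0.0568). For the difference from myoblasts it was 1054. Fits without 4 myoblast arrays that deviated together and on the 12 myotube arrays were chosen after seeing the data, and called 2747 and 2233 genes for the response. With 3 arrays a group, small changes were at the limit of these data.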
